A study of Mus musculus with 99 samples.

Results

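The genes described here are 10 brakes and switches of the cell cycle, chosen by name from the count table: reprimo (Rprm), the p53 gene (Trp53) with its inhibitor Mdm2, 5 inhibitors of cyclin-dependent kinases (Cdkn1a, Cdkn1b, Cdkn1c, Cdkn2c and Cdkn2d), the retinoblastoma gene Rb1 and cyclin D1 (Ccnd1). They are 10 of the 55291 gene symbols in the table. Their levels were read in 99 single hair cells picked by hand from mouse cochleae (C57BL/6). The 32 outer hair cells (OHCs) came from Slc26a5-CreER/+; Ai9/+ mice at postnatal day 30. The 67 cells called converted inner hair cells (cIHCs) came from Slc26a5-CreER/+; Rosa26Tbx2/+ mice at postnatal day 42, in which former OHCs carry ectopic Tbx2, a T-box transcription factor. Both groups express tdTomato, and in both an inducible Cre from the OHC gene Slc26a5 acts. Age and genotype differ together between the groups, so their parts cannot be told apart. No animal is named in the labels, so a group counts as 1 sample: values per cell describe its spread, no test was made, and inner hair cells that were never OHCs were not analysed here.

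Hair cells of the mammalian cochlea leave the cell cycle in the embryo and do not divide again. Cyclin D with its kinases CDK4 and CDK6 phosphorylates the retinoblastoma protein and so lets cells enter S phase. Inhibitors of the INK4 family (Cdkn2 genes) bind those kinases, inhibitors of the CIP/KIP family (Cdkn1 genes) act on cyclin-kinase complexes more broadly, and p53 switches on Cdkn1a, Mdm2 and Rprm, whose product holds cells in G2. Loss of Rb1, Cdkn2d or Cdkn1b is known to let hair cells or their precursors re-enter the cycle.

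Each OHC held 5656512 to 9287413 counts and each cIHC 4677682 to 13792672. The median number of genes with reads was 6068.5 in OHCs and 8546 in cIHCs. Levels are given as CPM (counts scaled to a common total), either of 1 cell or pooled over a group's summed counts, and ratios are log2 of pooled cIHC over pooled OHC CPM with an exact 95% interval. Reads amplified by PCR without molecular identifiers are not independent molecules, so these intervals cover counting error only. Cell type markers were chosen after their values were seen, so they describe the groups and do not test the labels. All 9 OHC genes were more than 2-fold lower in cIHCs, where 14.3% of all genes at 10 CPM were. All 9 inner hair cell genes were more than 2-fold higher, where 26.3% of all such genes were. Tbx2 stood at 0.0124 CPM among OHCs against 730.7 CPM among cIHCs. Xist passed 10 CPM in 4 OHCs and 55 cIHCs and Y-linked genes in 24 and 12, so the sex of the cells differs with the group; 4 OHCs passed neither. Markers of supporting cells, fibroblasts and glia (20 genes, without Pdgfra, which had reads in 29 OHCs and 64 cIHCs) summed to 0 to 2275 CPM per OHC (median 0.989) and 0 to 1493 per cIHC (median 11.5). They reached 100 CPM in 10 OHCs and 8 cIHCs. Single markers went both ways. Epyc and Lum had no read in cIHCs, and 99.96% and 86.8% of their OHC counts came from 1 cell. Slc1a3 and Lfng had no read in OHCs and stood at 4.10 and 0.840 CPM in cIHCs. Of all genes, 10041 reached 10 pooled CPM in OHCs, cIHCs or both, and their median log2 ratio was 0.25.

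Of the 10 genes, 6 reached 10 pooled CPM. Rprm and Cdkn1a were at least 2-fold higher in cIHCs, where 26.3% of all genes at that level were, and 0 were at least 2-fold lower, where 14.3% of all genes were. Trp53, at a log2 ratio of 0.97, and Cdkn2d, at 0.94, lay just under 2-fold, Rb1 at 0.63 and Mdm2 at -0.19. The remaining 4 (Cdkn1b, Cdkn1c, Cdkn2c and Ccnd1) were under 10 CPM in both groups. Over the 9 genes with a ratio, with a sum under 3 counts set to 3, the median log2 ratio was 2.24, the value of Cdkn1a. Over all genes with a ratio, without a minimum level, the median was 0.56. Over the 6 members above 10 CPM it was 0.95, against 0.25 over all genes at that level. The plot of single cells shows how differently the 10 genes are spread.

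**Figure D1:**
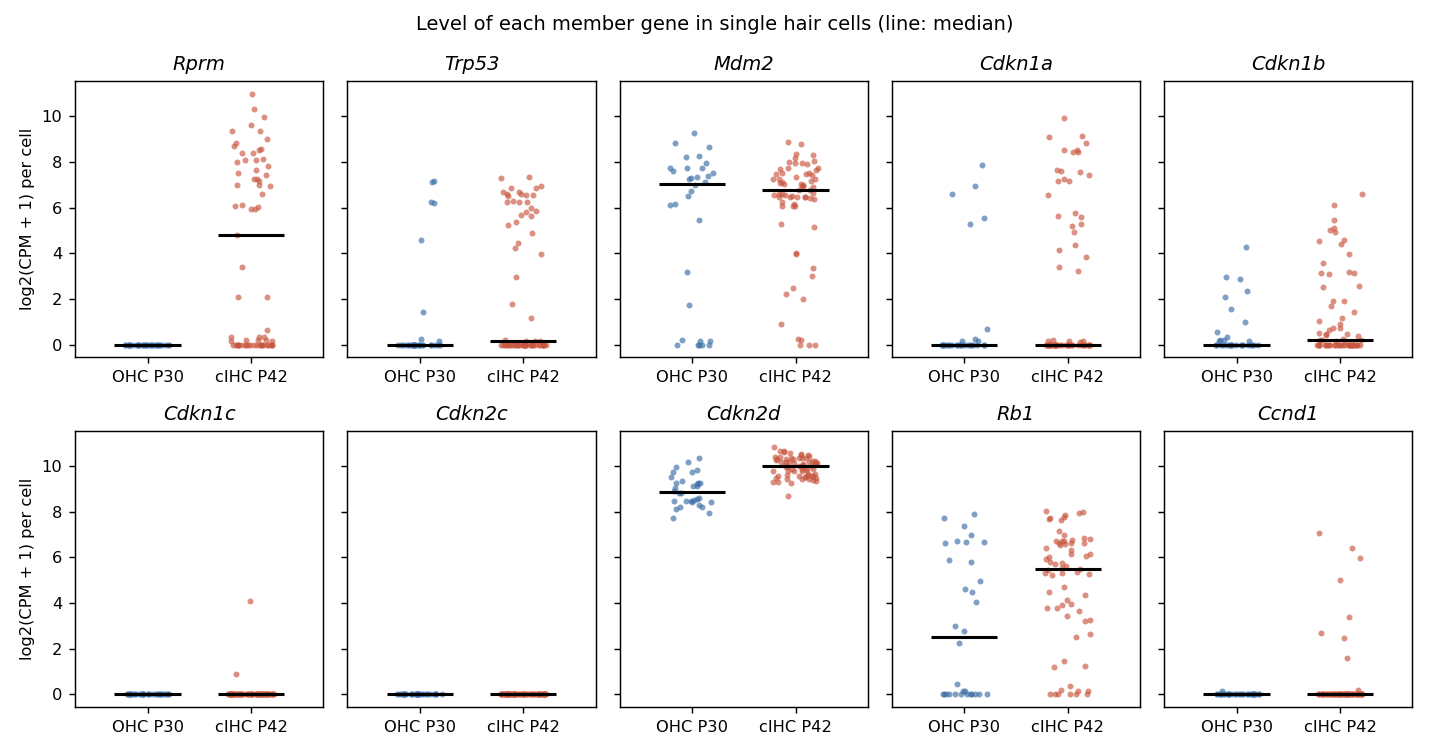
Level of each of the 10 genes in single hair cells, as log2(CPM + 1), for the 32 OHCs of postnatal day 30 (blue) and the 67 cIHCs of postnatal day 42 (red); each point is 1 cell, the line is the median and the sideways scatter has no meaning. Rprm has no read in any OHC, Cdkn2d is high in every cell, and Trp53, Mdm2, Cdkn1a and Rb1 run from cells at 0 to cells above 100 CPM in both groups.

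Rprm, whose small product was first described as a mediator of p53-dependent arrest in G2, was read in cIHCs alone. It lies at chr2:54084093-54085552 on the minus strand (GRCm38) as 1 exon block of 1460 bases that shares no exon with another annotated gene. None of the 32 OHCs held a Rprm read, which by the rule of 3 counts (3 of 32) allows up to 9.38% of OHCs with reads, while the exact 95% interval reaches 10.9%. In cIHCs Rprm stood at 205.5 pooled CPM (95% interval 204.3 to 206.7). Against a floor of 3 counts over the OHCs this is a log2 ratio of at least 14.02.

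Among the 67 cIHCs, Rprm ranged from 0 through a median of 27.1 to 2041 CPM per cell. Reads were found in 46 of them (68.7%, exact 95% interval 56.2% to 79.4%), and 34 cells had at least 10 CPM, the lowest of these at 27.1 and their median at 242.4. The groups overlapped only at 0, where all OHCs and 21 of the cIHCs lay. The highest cIHC held 17.6% of all Rprm counts and the next one 1287 CPM. Thinned to 1 depth of 5770000 counts, 44 of 66 cIHCs (66.7%) and 0 of 29 OHCs had reads.

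Because no OHC held a Rprm read, those of either sex held none, and a split by sex adds nothing on OHCs. Among cIHCs, Rprm had reads in 38 of the 55 with Xist and in 8 of the 12 with Y-linked reads. Pooled, these stood at 223.9 and 99.7 CPM. The OHCs number 4 with Xist and 24 with Y-linked reads. Without the cells that held foreign markers, a setting chosen after seeing the data, the log2 ratio was at least 13.42. The paralogue Rprml had no read in any of the 99 cells.

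The stretch before the Rprm start site is shown because the gene was read in 1 group and not in the other. These are the 250 bases upstream on the minus strand, chr2:54085553-54085802 (GRCm38.p6, from RefSeq), with capitals on the 1 GC box, the sequence GGGCGG searched on both strands, here as its reverse complement 143 bases before the start.
Rprm upstream: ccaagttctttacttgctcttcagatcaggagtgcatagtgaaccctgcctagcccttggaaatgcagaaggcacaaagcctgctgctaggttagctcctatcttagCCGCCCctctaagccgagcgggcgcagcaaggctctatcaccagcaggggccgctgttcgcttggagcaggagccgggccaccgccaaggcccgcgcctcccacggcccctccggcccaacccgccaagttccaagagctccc
RefSeq promoters (250 bases before to 50 after a start) were matched for 7 of the 10 genes, with 9 promoters; Cdkn1c, Rb1 and Ccnd1 had no entry. Of all 32851 promoters in that table, 35.7% held the GC box, 37.4% held CCAAT and 3.98% held GGTGTGA, the core that T-box factors bind. The Rprm window held neither CCAAT nor GGTGTGA. Of the 9 promoters, only that of the downstream Cdkn1a start held GGTGTGA, 15 bases after the start, in the 30 bases chr17:29093772-29093801 on the plus strand, with the core in capitals.
Cdkn1a second start: agcagccgagaGGTGTGAgccgccgcggtg
A match of letters is a description of the window and says nothing of binding.

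Trp53, which encodes p53 itself (chr11:69580359-69591873, plus strand), was read in only part of the cells of either group. It had reads in 8 of 32 OHCs (25%) and in 34 of 67 cIHCs (50.7%), and passed 10 CPM in 5 and 27. Per cell it ran from 0 through a median of 0 to 144.3 CPM in OHCs and from 0 through 0.116 to 159.1 CPM in cIHCs. The ranges coincided, and what differed was how many cells had reads at all. Pooled, 15.97 CPM in OHCs stood against 31.3 in cIHCs, a log2 ratio of 0.97 (0.92 to 1.02), and 1 OHC held 33.8% of the OHC counts. Leaving out the top cell on each side gave 1.46, past 2-fold, and within sex it was 1.29 among cells with Y-linked reads and 5.84 among those with Xist, where 1 of 4 OHCs had reads. Genes with reads per cell were also more numerous in cIHCs, and the part of that in the shares was not tested. With cells thinned to 1 depth, 20.7% of OHCs and 48.5% of cIHCs had Trp53 reads.

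Mdm2, the ubiquitin ligase that p53 induces and that marks p53 for breakdown (chr10:117688875-117710758, minus strand), was read in more cells of either group than Trp53. It had reads in 27 of 32 OHCs and 64 of 67 cIHCs. Its level per cell ran from 0 through 132.1 to 621.4 CPM in OHCs and from 0 through 107.0 to 473.1 CPM in cIHCs, and the ranges overlapped throughout: the cIHC was the higher in 49.8% of the 2144 pairs of 1 cIHC and 1 OHC. The pooled 143.2 and 125.9 CPM gave a log2 ratio of -0.19 (-0.20 to -0.17). Among cells with Y-linked reads the ratio was 0.35, with 122.5 CPM in OHCs and 156.7 in cIHCs, so the sign of this small difference rests on which cells are compared.

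Cdkn1a, which encodes p21, the CIP/KIP inhibitor that p53 switches on (chr17:29090976-29100727, plus strand), was higher in cIHCs. It had reads in 9 of 32 OHCs (28.1%) and 32 of 67 cIHCs (47.8%), and at least 10 CPM in 5 and 25. Per cell it ran from 0 through 0 to 236.0 CPM in OHCs and from 0 through 0 to 984.9 CPM in cIHCs. The median cell of either group thus had no Cdkn1a read, and the cIHCs extended further upward: among cells with at least 10 CPM the median was 96.3 CPM in OHCs and 153.0 in cIHCs. Pooled Cdkn1a was 16.3 and 77.2 CPM, a log2 ratio of 2.24 (2.19 to 2.29). The ratio was 1.12 among cells with Y-linked reads and 3.12 among those with Xist, where the OHCs number 4.

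**Figure D2:**
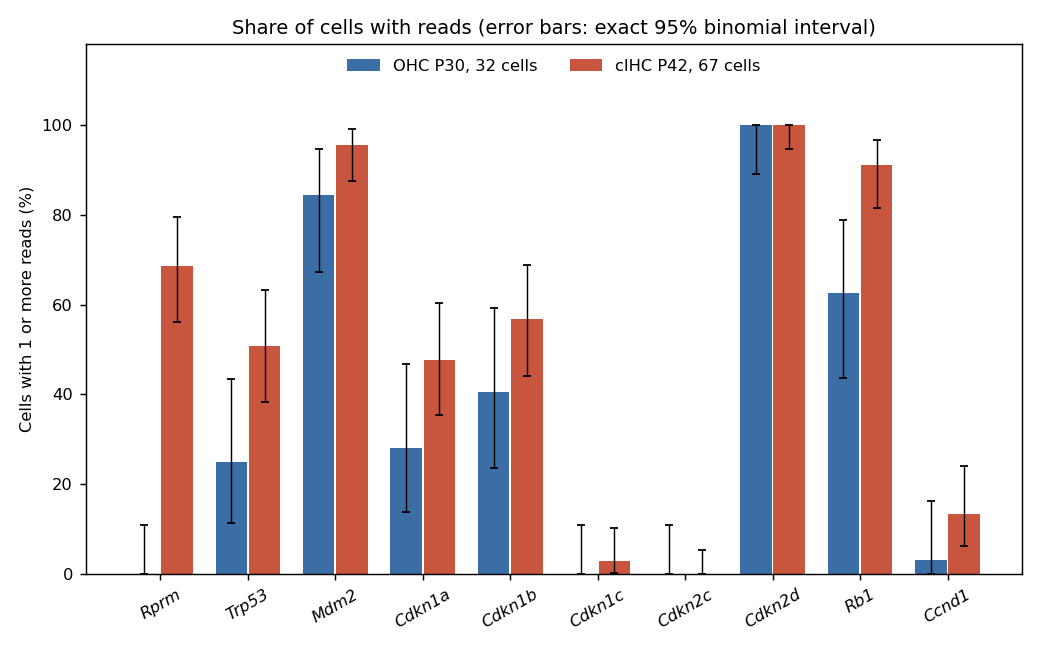
Share of cells with at least 1 read of each gene, in percent of the 32 OHCs (blue) and the 67 cIHCs (red); error bars are exact 95% binomial intervals for counting error. Rprm goes from no cell to 68.7% and Rb1 from 62.5% to 91.0%, and cells of a group are not replicates, so the bars are no test between the groups.

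Cdkn1b, which encodes p27 (chr6:134920401-134925513, plus strand), was low in both groups. Reads were found in 13 of 32 OHCs and 38 of 67 cIHCs, but only 1 OHC and 11 cIHCs passed 10 CPM. Per cell the level ran from 0 through 0 to 18.2 CPM in OHCs and from 0 through 0.166 to 95.9 CPM in cIHCs. The pooled 1.31 and 6.94 CPM gave a log2 ratio of 2.41 (2.24 to 2.58) at a level where a single cell weighs much: the highest OHC held 32.8% and the highest cIHC 23.1% of the counts.

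Cdkn1c, which encodes p57, an imprinted inhibitor (chr7:143458339-143461050, minus strand), was close to unread. No OHC had a read, and of 171 counts in cIHCs 95.3% came from 1 cell at 16.2 CPM, with reads in 1 other. Against the floor of 3 counts the log2 ratio is at least 4.66, and 0.27 without that cell. It shares 30.7% of its exon bases with the antisense Gm44732, and the counting's use of strand is not given in the sources used here.

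Cdkn2d, which encodes the INK4 inhibitor p19Ink4d and is the one known for keeping mature hair cells out of the cycle (chr9:21288410-21291407, minus strand), was read in every cell. Its level ran from 210.4 through a median of 468.4 to 1309 CPM per OHC and from 417.2 through 1035 to 1831 CPM per cIHC. The ranges overlapped between 417.2 and 1309 CPM, and the cIHC was the higher in 89.8% of the 2144 pairs. Pooled levels were 541.9 and 1038 CPM, a log2 ratio of 0.94 (0.93 to 0.95). The spread relative to the mean was wider in OHCs, with a coefficient of variation of 0.50 against 0.29. Within sex the ratio was 1.45 among cells with Xist, where the OHCs number 4, and 0.77 among cells with Y-linked reads. Its RefSeq promoter held 5 GC boxes, of which the first 2 are shown in capitals for contrast with the single one of Rprm, in the 30 bases chr9:21291304-21291333 on the minus strand; annotated transcripts of Cdkn2d start on either side of it.
Cdkn2d GC boxes: cgctctGGGCGGggcctgGGGCGGgcttgc

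Cdkn2c, which encodes p18Ink4c (chr4:109660876-109667189, minus strand), had no read in any cell, so the same rule allows up to 9.38% of OHCs and 4.48% of cIHCs with reads (exact 95% limits 10.9% and 5.36%). Of the INK4 genes outside the 10, Cdkn2a also had no read, and Cdkn2b had 697 counts in OHCs, 99.7% of them from 1 cell, and 0 in cIHCs. Divided by exon length, Cdkn2d made up 98.0% of the summed level of the 7 CDK inhibitor genes in OHCs (344.3 of 351.2 CPM per kilobase) and 96.6% in cIHCs (659.2 of 682.6). Counting inhibitors with at least 10 CPM, 25 OHCs had 1 and 7 had 2. Among cIHCs 34 had 1, 29 had 2 and 4 had 3 or more. Since Cdkn2d passed in every cell, every further inhibitor stood beside it.

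Rb1, the pocket protein that holds E2F factors in check (chr14:73183673-73325822, minus strand), was read in more cIHCs than OHCs. It had reads in 20 of 32 OHCs (62.5%) and 61 of 67 cIHCs (91.0%). Its level ran from 0 through a median of 4.84 to 240.1 CPM in OHCs and from 0 through 43.6 to 263.9 CPM in cIHCs, so the ranges coincided while the medians lay far apart. The pooled log2 ratio was 0.63 (0.60 to 0.67), from 40.4 and 62.7 CPM, and 3.17 for the medians of the cells. Within sex it was past 2-fold in both strata, at 2.37 among cells with Xist and 1.39 among cells with Y-linked reads. The OHCs with Xist number 4, of which 2 had Rb1 reads, at 10.5 pooled CPM. OHCs with Y-linked reads stood at 42.1 CPM, and cIHCs at 54.5 with Xist and 110.1 with Y-linked reads. The overall ratio thus sets mostly Xist cIHCs against mostly Y-linked OHCs. Rb1 shares 8.11% of its exon bases with Rcbtb2 and 6.78% with Lpar6, both on the other strand. Those genes were also higher in cIHCs, with Rcbtb2 at 74.7 and 137.2 and Lpar6 at 0.215 and 23.04 CPM, and their part in the Rb1 counts was not tested.

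Ccnd1, the cyclin that opposes these brakes (chr7:144929931-144939925, minus strand), was found in few cells. OHCs held 1 count in 1 cell, and cIHCs 2455 counts in 9 cells, 4 of them with at least 10 CPM and the highest, at 131.7 CPM, with 40.7% of the counts. The ratio of these counts has a log2 of 10.09 (7.61 to 15.40), on a pooled cIHC level of 4.51 CPM. It shares 23.4% of its exon bases with LTO1 on the other strand, which stood at 23.5 CPM (OHC) and 15.3 CPM (cIHC). The other D cyclins differed from it: Ccnd2 had 1 count in all, and Ccnd3 was at 81.5 CPM in OHCs and 130.7 in cIHCs (log2 ratio 0.68).

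Ordered by pooled CPM per kilobase of exon, OHCs had Cdkn2d (344.3), Mdm2 (28.2), Rb1 (6.72), Cdkn1a (4.60), Trp53 (3.95) and Cdkn1b (0.288), with Ccnd1, Cdkn1c, Cdkn2c and Rprm at or near 0. The cIHCs had Cdkn2d (659.2), Rprm (140.7), Mdm2 (24.8), Cdkn1a (21.7), Rb1 (10.4), Trp53 (7.73), Cdkn1b (1.53), Ccnd1 (0.958) and Cdkn1c (0.154). Rprm, without a read in OHCs, was second in cIHCs by pooled level. By the median cell it lay below Mdm2, at 18.58 against 21.04 CPM per kilobase. Cell by cell, Cdkn2d had the highest level per kilobase of the 10 genes in all 32 OHCs and in 62 of the 67 cIHCs, and Rprm had it in the other 5. From Mdm2 down to Trp53 the ranges of neighbouring genes overlapped, each reaching 0 in some cells.

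Of the 32 cIHCs with Cdkn1a reads, 19 also had Rprm reads. At 10 CPM, 7 cIHCs had both Rprm and Cdkn1a, 27 had Rprm alone, 18 had Cdkn1a alone and 15 had neither. Across the 67 cIHCs the Spearman correlation of Rprm with Cdkn1a was -0.36. Such values across cells are descriptions, because all cells share 1 group and their depth and number of genes with reads vary together with the levels. Rprm had a correlation of 0.35 with total counts and 0.43 with genes with reads, and Cdkn1a -0.27 and -0.28.

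The 2 genes also stood in opposite relation to Tbx2, whose level ran from 112.7 through 583.9 to 2643 CPM in cIHCs. The correlation with Tbx2 was 0.48 for Rprm and -0.52 for Cdkn1a. The signs were the same among the 55 cells with Xist (0.48 and -0.51) and the 12 with Y-linked reads (0.61 and -0.42). That of Rprm with Trp53 was -0.00 and with Mdm2 -0.10, and that of Cdkn1a was -0.33 with Trp53 and 0.26 with Mdm2. The most ubiquitous brake, Cdkn2d, had 0.21 with Tbx2, -0.11 with Rprm and 0.01 with Cdkn1a. With the summed foreign markers the correlation was 0.06 for Rprm and 0.26 for Cdkn1a, and with 9 immediate early and heat shock genes of dissociation it was 0.24 and -0.38.

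**Figure D3:**
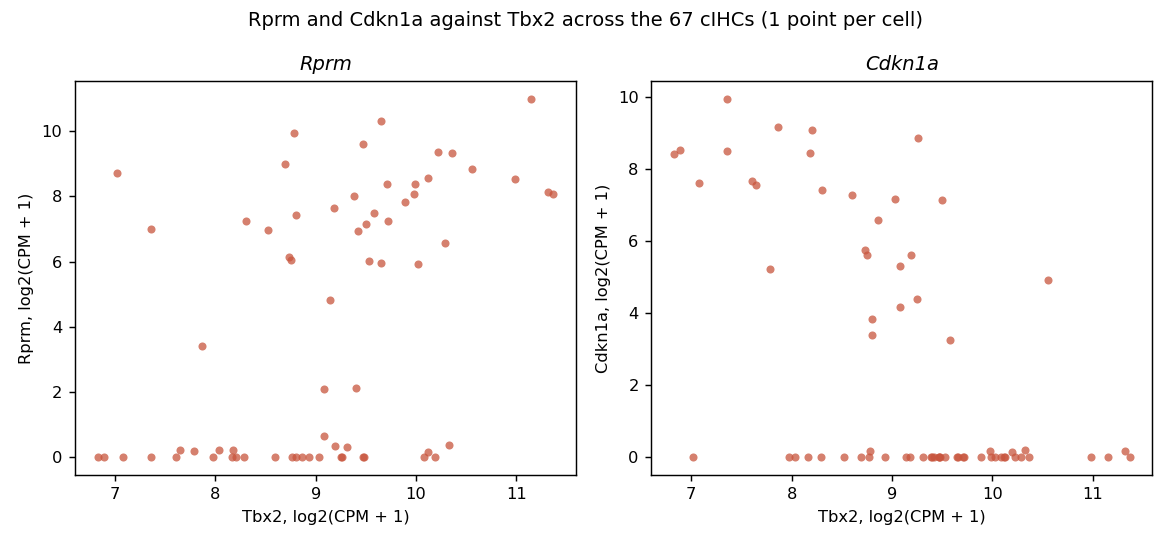
Rprm (left) and Cdkn1a (right) against Tbx2 in each of the 67 cIHCs, all as log2(CPM + 1); each point is 1 cell. Cells without Rprm reads are spread over Tbx2 levels below the highest and the cells with the most Tbx2 have Rprm (Spearman correlation 0.48), whereas the higher Cdkn1a levels lie mostly toward lower Tbx2 (Spearman correlation -0.52).

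The genes whose levels followed Rprm most closely over the 67 cIHCs, of 7291 compared, were Enkur (Spearman correlation 0.64), Clic1 (0.61), Fam13a (0.60), Gapdh (0.60) and Gm6831 (0.58). The central 90% of the genes compared lay between -0.26 and 0.31. Enkur was at 12.0 and 102.7 CPM in OHCs and cIHCs. All 5 were more than 2-fold higher in cIHCs, against 26.3% of all genes at 10 CPM in 1 or both groups. The genes compared needed 10 CPM and reads in at least 50% of cIHCs, with no such need in OHCs. That choice favours genes high in cIHCs, and Clic1 had reads in 5 OHCs and Gm6831 in 4. For Cdkn1a, of 7292 compared, they included Kcp (0.58), Gpx2 (0.56), Cabp1 (0.56) and Ttc7 (0.50). Of these, Gpx2 (4876 and 1668 CPM) and Ttc7 (409.1 and 102.8 CPM) were more than 2-fold lower in cIHCs. Kcp was at 306.0 and 426.2 CPM, and Cabp1 had 1 count among OHCs and 13.4 CPM in cIHCs.

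The wider pathway was read from 85 further genes in 6 lists, of which 41 reached 10 CPM. At least 2-fold higher in cIHCs were 11 (against 26.3% of all genes) and at least 2-fold lower 8 (against 14.3%), and their median log2 ratio, 0.19, lay beside the 0.25 of all genes. These are 26.8% and 19.5% of the 41, so the first lies at the background and the second somewhat above it. With the TMM factor or median-of-ratios scaling 8 were higher and 10 lower. Bax, E2f4 and Rbl2 then lay under 2-fold, and Trp53inp1 and Tfdp1 were then past 2-fold lower. Of all genes 22.3% were then higher and 17.3% lower with TMM, and 22.2% and 17.5% with median-of-ratios. The log2 ratios of these genes are plotted by list beside those of the 10.

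**Figure D4:**
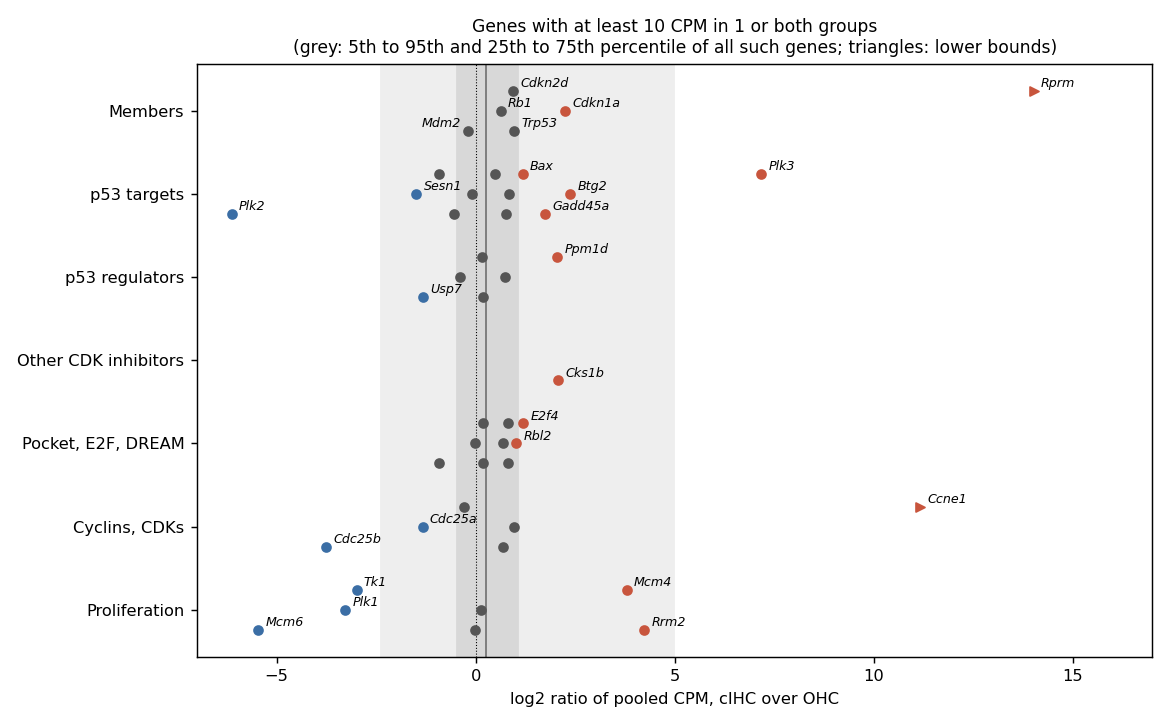
Log2 ratio of pooled CPM, cIHC over OHC, for genes that reached 10 CPM: 6 of the 10 genes described and 41 of 85 from 6 wider lists. Grey bands span the 5th to 95th and 25th to 75th percentile of all 10041 such genes, the grey line is their median (0.25), triangles are lower bounds, red and blue mark genes at least 2-fold higher or lower, and the height within a row has no meaning; Rprm lies farthest to the right.

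Among 20 targets of p53, 12 reached 10 CPM, with 4 higher and 2 lower. Btg2, an antiproliferative early response gene, was at 148.3 and 771.6 CPM (log2 ratio 2.38), Gadd45a, a DNA damage response gene, at 19.1 and 63.7 (1.74), and Bax, a pore-forming apoptosis gene, at 31.5 and 71.4 (1.18). Plk3 was higher (0.124 and 17.9 CPM, 7.17), while Plk2 (97.1 and 1.39 CPM, -6.13) and Sesn1 (59.6 and 21.2 CPM, -1.49) were lower. Trp53inp1 (91.3 and 48.4 CPM, -0.92) and Ccng1 (80.2 and 55.3 CPM, -0.54) were under 2-fold, though Trp53inp1 passed it with either other scaling. The 4 and 2 are 33.3% and 16.7% of the 12, near the shares of all genes. Pmaip1 and Fas had no read in any cell. The 9 dissociation genes were at a median sum of 930.7 CPM per OHC (range 0.467 to 5376) and 1482 per cIHC (241.2 to 5884). Of the 8 that reached 10 CPM, Fos, Junb, Egr1 and Atf3 were higher (50%, against 26.3% of all genes). Fosb was lower (12.5%, against 14.3% of all genes), with 56.5% of its OHC counts in 1 cell. It passed 10 CPM in 15.6% of OHCs and 14.9% of cIHCs. For Egr1, 98.4% of the OHC counts came from 1 cell. The part of the dissociation genes in Btg2, Gadd45a or Plk3 was not tested. Gadd45a shares 19.1% of its exon bases with E230016M11Rik.

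Of 11 regulators of p53, 6 reached 10 CPM. Ppm1d, a phosphatase that switches p53 signalling off, was higher (4.68 and 19.4 CPM, log2 ratio 2.05), with 91.4% of its OHC counts in 1 cell. Usp7, which removes ubiquitin from Mdm2 and p53, was lower (195.9 and 78.2 CPM, -1.32). Each of these is 16.7% of the 6, where 26.3% of all genes were higher and 14.3% lower. Trp53bp1 (67.2 and 75.6 CPM, 0.17) and Mdm4 (35.8 and 59.4 CPM, 0.73) were under 2-fold, and the p53 relatives Trp63 and Trp73 had no read. Of 4 further genes around CDK inhibitors only Cks1b reached 10 CPM, and it was higher (4.80 and 20.2 CPM, 2.07); Skp2 stood at 3.34 and 2.36 CPM.

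Of 17 pocket protein, E2F and DREAM complex genes, which act downstream of the brakes, 9 reached 10 CPM. The repressor genes E2f4 (21.1 and 48.2 CPM, log2 ratio 1.19) and Rbl2 (8.77 and 17.8 CPM, 1.02) were higher and 0 were lower. The 2 higher are 22.2% of the 9, against 26.3% of all genes, and the 0 lower stand against 14.3%. Both E2f4 and Rbl2 lay under 2-fold with the TMM factor or median-of-ratios scaling. Rbl2 shares 9.17% of its exon bases with Aktip. Tfdp1 (72.7 and 38.4 CPM, -0.92) and Tfdp2 (40.8 and 46.4 CPM, 0.19), the partners of E2F, were under 2-fold, and E2f7 had no read. With those scalings Tfdp1 was past 2-fold lower.

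Of 15 cyclin and kinase genes 6 reached 10 CPM. Ccne1, the G1/S cyclin, had no read in OHCs and 28.4 CPM in cIHCs, with reads in 31 of 67 (log2 ratio at least 11.16). The phosphatases Cdc25a (16.3 and 6.49 CPM, -1.33) and Cdc25b (16.5 and 1.22 CPM, -3.76) were lower. The 1 higher and 2 lower are 16.7% and 33.3% of only 6 genes, against 26.3% and 14.3% of all genes. Cdk4, the partner of D cyclins, lay just under 2-fold at 50.2 and 98.8 CPM (0.98). It shares 19.7% of its exon bases with Tspan31 on the other strand, which was at 37.3 and 105.8 CPM. Trp53bp1 shares 15.04% with Tubgcp4 (25.1 and 10.9 CPM), also on the other strand.

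Of 18 proliferation genes 7 reached 10 CPM, with 2 higher and 3 lower. These are 28.6% and 42.9% of only 7 genes, against 26.3% and 14.3% of all genes. Mcm4 (1.60 and 22.2 CPM, log2 ratio 3.79) and Rrm2 (0.752 and 14.1 CPM, 4.23) were higher, while Mcm6 (79.6 and 1.82 CPM, -5.45), Plk1 (35.2 and 3.64 CPM, -3.27) and Tk1 (21.8 and 2.74 CPM, -2.99) were lower. Pcna, the replication clamp, stood at 68.1 and 74.8 CPM (0.14). Mki67 had no read in OHCs and 0.436 CPM in cIHCs, with reads in 2 of 67 and 99.6% of its counts in 1 cell. Bub1 had no read in either group. Of 12 mitotic genes, picked from these lists after their values were seen, no cell had 3 or more at 10 CPM: 17 OHCs had 0, 13 had 1 and 2 had 2, and 52 cIHCs had 0, 14 had 1 and 1 had 2.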

How the data were processed

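The authors deposited 1 table of whole-number read counts for 55291 gene symbols and 99 cells, of which 28509 had no read. Cells were picked and amplified by the Smart-seq method, per the labels' protocols. The submitters' processing notes list HISAT2 2.2.1, StringTie 2.2.1, featureCounts 2.0.1 and build mm10; their roles, the annotation and the strand setting are not given in the sources used here. Of the table's columns 0 belonged to no sample. Each cell's group came from its title, all cells were used, and no doublets were removed, since cells were picked singly.

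Counts were summed per group and divided by the total (pooled CPM). Genes needed 10 CPM in 1 or both groups to be counted and a fold of 2 to be called higher or lower. Where a group had no count, its sum was replaced by 3 counts and the ratio is a bound; smaller sums also entered medians as 3 counts. Intervals are exact Poisson for CPM, conditional binomial for ratios and Clopper-Pearson for shares, at 95%, and cover counting error only; where no cell had a read, 3 cells over the number of cells is also given. Shares were also taken after thinning cells to 5770000 counts (29 OHCs and 66 cIHCs). No 2 columns of a group were identical. Exon lengths, overlaps and coordinates are from GENCODE M21 (GRCm38), which holds 96.4% of the symbols and all 10 genes; promoters are from RefSeq.

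The members and lists were chosen with earlier results of these data known. Named besides the members are the listed genes past 2-fold, the 3 with the most counts in each list, Rprml, and the 5 genes most like Rprm or Cdkn1a by Spearman correlation, among genes with 10 CPM and reads in at least 50% of cIHCs; 1 of these genes is not reported here. The other named genes (Ccnd2, Cdkn2a, Mki67, Bub1, Pmaip1, Fas, Trp63, Trp73, E2f7, overlapping genes and markers) were chosen after their values were seen. Alternatives were other averages, TMM (edgeR 4.0.16) or median-of-ratios scaling, other totals, thinning, subsets of cells, and other minimum levels and folds. The ratio step was tested on simulated data. Python 3.11.15, numpy 2.4.6, pandas 2.3.3, scipy 1.17.1, matplotlib 3.10.9 and R 4.3.3 were used.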

Additional observations from a re-analysis of the deposited data

How the results depend on the processing

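Over the alternatives 89 of 90 ratios of the 8 genes other than Rprm and Cdkn2c kept their sign, and Mdm2, at -0.19, was 0.35 among cells with Y-linked reads. The bound for Rprm was 11.07 among cells with Xist reads, where the floor is spread over 4 OHCs, and no value exists for the median of cells, which is 0 in OHCs. The median log2 ratio of the members, 2.24, was 2.30 for the mean of CPM per cell, 1.14 for the median (over the 3 genes with a ratio there, against 9), 1.46 without the highest cell of each gene, 2.05 with the TMM factor, 2.16 without the 10 most abundant genes, 2.04 with median-of-ratios scaling, 2.19 with thinned cells, 1.93 without the 10% of cells with fewest genes, 2.37 among cells with Xist reads, 1.34 among cells with Y-linked reads (over 8 genes) and 2.05 without cells with foreign markers, an alternative chosen after seeing the data. TMM moved the median of all genes by -0.19 and median-of-ratios by -0.20. The 2 members at least 2-fold higher became 5 among cells with Xist reads (40.7% of all genes), 4 among cells with Y-linked reads (28.5%) and 5 with no minimum level (42.0% of all genes). The 11 genes of the wider lists at least 2-fold higher became 17 without the highest cell (34.96% of all genes), 17 among cells with Xist reads (40.7%), 25 with no minimum (42.0%), 3 at 50 CPM (20.5% of all genes) and 7 at 4-fold (12.7%). The 8 lower became 1 for the median of CPM per cell (9.57%), 16 with no minimum (18.8%), 4 at 50 CPM (12.2%) and 5 at 4-fold (6.31%). The cause of these shifts was not tested, apart from the thresholds, which change how many genes are counted. No paired analysis was possible because titles number the cells singly and no test was made.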
